A study of Mus musculus with 11 samples.

Results

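The genes studied were 7 genes that mark B cells and the plasma cells that arise from them, namely Cd79a, Cd79b, Ms4a1, Igj, Cd22, Blnk and Pax5. They were found by name among the 36413 gene names on the arrays, where they had 9 of the 55681 probes other than control probes. B cells carry an antibody on their surface as their antigen receptor, and once activated they can become plasma cells, which release antibody into blood and tissue. In arteries, B cells are found mostly in the adventitia and in the surrounding fat. RNA was measured in whole aortas, so fewer B cells and less RNA per B cell cannot be told apart.

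Expression was compared in the descending aorta of male C57BL/6 mice aged 20 months. The 5 old nitrate mice had received 1 g/L NaNO3 in their drinking water for 8 weeks, and 6 old mice served as controls. Per the study's methods the controls drank sodium chloride, whereas their labels name no salt and call them samples analysed again, so housing together with the treated mice cannot be read from the labels. The vessel was flushed and freed of surrounding fat before its RNA was extracted, and each mouse had a one-color Agilent array of its own.

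Signals are on the log2 scale after quantile normalization, so a difference of 1 is a doubling. To be taken as detected, a probe needed a found spot above background by a clear margin in 5 or more mice of one group, and 23633 probes met this. A gene was counted as higher or lower, and is said below to have passed, where limma's moderated test gave P below 0.05 before adjustment and the fold change exceeded 1.2. The 11 arrays lay on 3 slides, each with both groups, but all control arrays and no nitrate array lay in column 3 of a slide, so that column and treatment cannot be told apart. No spot was saturated. Precision is limited by how few arrays there are. Of all arrays, that of control 1 was the least like the rest.

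Of the 7 genes, 4 had a detected probe, which were Cd79b, Igj, Cd22 and Blnk. Cd79b and Igj were lower in nitrate treated mice and none was higher. Over all detected probes 9.00% passed, 4.85% as lower and 4.16% as higher. The median difference of the 4 genes was -0.43, against 0.01 for all detected probes. These 4 are described as a set only, since Blnk was detected through the controls alone, with its spot found on 4 of 5 nitrate arrays. After Benjamini-Hochberg adjustment over all detected probes neither Cd79b nor Igj passed 0.05 in limma's test, where 3 probes of the whole array did.

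**Figure D1:**
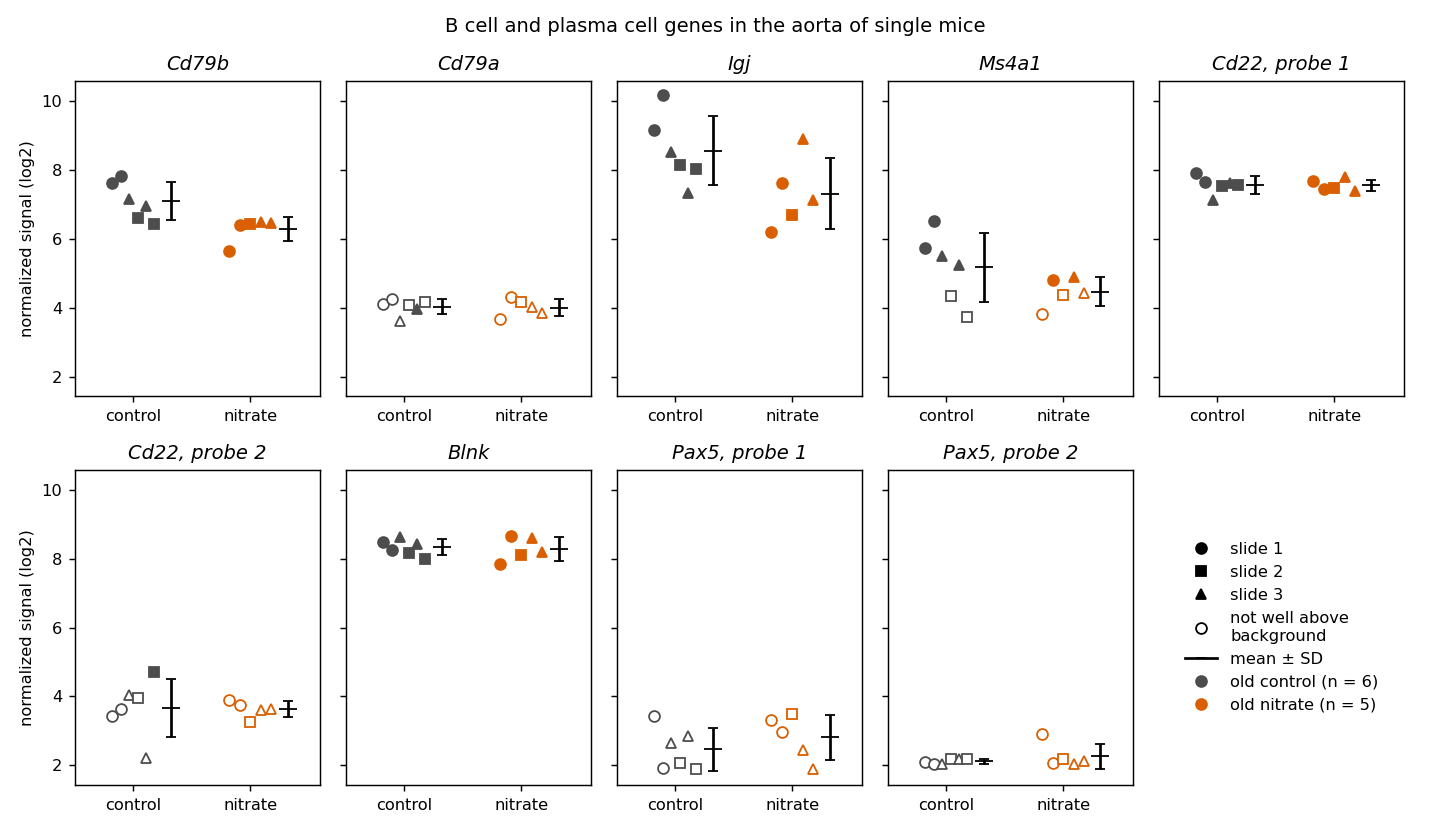
Normalized log2 signal (vertical axis) of each of the 9 probes in single mice, controls in gray and nitrate treated mice in orange, with the mean ± SD beside the points. Symbols give the slide and open symbols an array on which the probe was not well above background. Cd79b and Igj lie lower in nitrate treated mice with some overlap, Cd22 probe 1 (the detected probe) and Blnk lie level, and Pax5 was not well above background on any array.

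Cd79a and Cd79b encode the paired chains that carry the signal of the B cell antigen receptor into the cell. The Cd79b probe lies on chromosome 11 of mm9, at chr11:106172780-106172839. Its first 30 bases are shown since it is the gene with the smallest P value of the 7.
Cd79b: agagacttgttggaatctgcaaatggactc

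The Cd79b signal was 5.66, 6.39, 6.42, 6.49 and 6.46 in nitrate treated mice 1 to 5. Controls ranged from 6.43 to 7.82, with a median of 7.05. Control 6 was the one control below the highest nitrate treated mouse, and the other 5 controls lay above all nitrate treated mice. The means were 6.28 ± 0.35 (SD, n = 5) and 7.10 ± 0.55 (SD, n = 6), a difference of -0.81 with a standard error of 0.25 and a 95% interval from -1.37 to -0.26 (two-sided exact permutation test, p = 0.0195). This is a signal 1.76-fold lower. In limma's test the unadjusted P value was 0.00772 and the adjusted P value 0.221.

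The partner chain could not be compared. The Cd79a probe, on chromosome 7 of mm9 between 25684357 and 25684614, was well above background on 0 of 5 nitrate arrays and 1 of 6 control arrays. Its signal ranged from 3.66 to 4.30 in nitrate treated mice and from 3.62 to 4.27 in controls.

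Igj, now named Jchain, encodes the joining chain that links antibodies of the IgM and IgA classes into larger units and is made in quantity by plasma cells. Its probe lies at chr5:88949919-88949978 in mm9, and its first 30 bases are shown because it had the largest difference of the 7 genes.
Igj: ctgtactagtctttctcttaacctctcact

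The Igj signal was 6.21, 7.61, 6.69, 8.91 and 7.11 in nitrate treated mice 1 to 5. Controls ranged from 7.34 to 10.17, with a median of 8.35. The groups overlapped, since nitrate treated mouse 4 lay above 4 of the controls. The means were 7.31 ± 1.04 (SD, n = 5) and 8.56 ± 0.99 (SD, n = 6), a difference of -1.26 with a standard error of 0.53 and a 95% interval from -2.42 to -0.09. Igj passed in limma's test, with an unadjusted P value of 0.0367 and an adjusted one of 0.321 (two-sided exact permutation test, p = 0.0714). Igj no longer passed without any one of nitrate treated mouse 1, 3 or 5 or control 1, 2 or 3, when the difference lay between -1.26 and -0.94.

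Ms4a1 encodes CD20, a membrane protein of B cells that is lost when they become plasma cells. Its probe, at chr19:11325367-11325426 in mm9, is shown because it followed Cd79b from mouse to mouse.
Ms4a1: gctgtgctttgagattctttccaaatggca

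Ms4a1 was well above background on 2 of 5 nitrate arrays and 4 of 6 control arrays, and so did not count as detected. Its signal was 3.82, 4.81, 4.38, 4.89 and 4.42 in nitrate treated mice 1 to 5, and in controls from 3.73 to 6.51 with a median of 5.36. The 4 highest mice were controls, and the lowest mouse was a control as well. The difference was -0.71, with a 95% interval from -1.71 to 0.29, within the spread between mice (two-sided exact permutation test, p = 0.177). In limma's fit over all probes it passed in 3 of 27 alternative settings, of which 2 left out control 6, whose own signal was not well above background. It was -0.45 without control 2 and -0.14 without slide 1, and passed in neither.

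Cd22 and Blnk lay level in both groups. Cd22 is a surface lectin of B cells that dampens signals of the antigen receptor, and Blnk is the adaptor that joins the kinase Syk to phospholipase C gamma below it. The detected Cd22 probe, called probe 1, lies at chr7:31651249-31651308 and the Blnk probe at chr19:41003426-41003485, both in mm9. Their first 30 bases are shown as those of the detected genes that did not pass.
Cd22: gaaaaatgaaaaaccaaccaaccaaccaaa
Blnk: gaagtcatagctggggaggttcggttacta

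The detected Cd22 probe had 7.55 ± 0.17 (SD, n = 5) in nitrate treated mice, with values from 7.40 to 7.79, and 7.57 ± 0.26 (SD, n = 6) in controls, from 7.12 to 7.92. The difference was -0.02 with a 95% interval from -0.29 to 0.26. Its printed bases hold the letters aacc 4 times. The other Cd22 probe, called probe 2, at chr7:31665113-31665172, reads a part of the transcript nearer its start and was well above background on 0 of 5 nitrate arrays and 1 of 6 control arrays, so the level of the first probe has no second measurement. Blnk had 8.28 ± 0.34 (SD, n = 5) and 8.33 ± 0.23 (SD, n = 6), a difference of -0.05 with a 95% interval from -0.39 to 0.29.

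Pax5 encodes the transcription factor that holds cells in the B cell lineage and is switched off in plasma cells. Both of its probes lie on chromosome 4 of mm9, and neither was well above background on any of the 11 arrays, so no fold change is given.

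Antibody chains themselves were read by probes that the arrays name mostly by transcript identifiers. By gene name 10 probes were found, and 50 more by the words immunoglobulin heavy, kappa or lambda in their descriptions, a search added after the files had been seen. Genes of these families share sequence, so each probe may read several genes and is uncertain in its identity. Of the 60 probes, 13 were detected, 6 of these were lower in nitrate treated mice and 0 higher, beside 4.85% lower and 4.16% higher of all detected probes. This count is partly set by the detection rule, since 10 of the 13 were detected through the controls alone, and is no support for a fall of the family. The other 3, for the kappa constant region, IgM and delta-like heavy chains, were detected in all nitrate treated mice and all 3 were lower. Both probes detected by gene name, for the constant region of the IgA heavy chain, were detected through the controls alone. They did not pass, at -1.07 and -0.94. Without slide 1, a choice made after seeing the data, they were -1.73 and -1.57 and passed. They also passed without nitrate treated mouse 2 or without control 2, and were -0.81 and -0.61 without nitrate treated mouse 4. Of the 47 probes that were not detected, 24 were well above background on no array.

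The first 30 bases are shown of both detected probes for lambda variable 1, which had the smallest P values of the 13, and of the probe for the constant region of the kappa light chain, which followed Igj from mouse to mouse. They lie at chr16:19085111-19085170, chr16:19198704-19198763 and chr6:70676692-70676751 in mm9. No pair of the 13 detected probes shares a run of more than 9 bases, so they do not bind the same stretch.
Lambda variable 1, probe 1: aggggcacagactgaggatgaggcaatata
Lambda variable 1, probe 2: ggcaacaagttcatggccagcagcttccta
Kappa constant region: gccactcacaagacatcaacttcacccatt

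Light chains of the lambda type pair with heavy chains in a small share of mouse antibodies. Lambda probe 2 was detected through the controls alone, with its spot found on 4 of 5 nitrate arrays, though it was well above background on all 11. It had 5.43, 5.87, 5.62, 5.47 and 5.22 in nitrate treated mice 1 to 5, and from 6.36 to 8.17 in controls with a median of 6.88. Every nitrate treated mouse lay below every control, as in 2.75% of all detected probes in either direction. The difference was -1.62 with a standard error of 0.30 (two-sided exact permutation test, p = 0.00433), and limma's adjusted P value was 0.0940.

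Lambda probe 1 was well above background on 0 of 5 nitrate arrays and 5 of 6 control arrays, so it was detected through the controls alone. Measured means were 2.76 ± 0.78 (SD, n = 5) and 5.70 ± 0.96 (SD, n = 6). With the lowest signals well above background in place of the nitrate readings, the signal was 2.90-fold lower. This is no lower limit, since control 6 was not well above background either. The adjusted P value of 0.0755 in limma's test compares controls with readings not well above background. Control 6 alone lay among the nitrate treated mice.

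The kappa constant region, which is part of most mouse antibodies, gave 8.04, 9.83, 8.91, 10.38 and 9.08 in nitrate treated mice 1 to 5. Controls ranged from 9.60 to 12.00, with a median of 10.27. The groups overlapped through nitrate treated mice 2 and 4. The difference was -1.36 with a standard error of 0.49 (two-sided exact permutation test, p = 0.0455). It was -0.78 without controls 1 and 2 and -0.57 without slide 1, and did not pass in either case.

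The IgM heavy chain probe was lower by a difference of -0.80 and the delta-like probe by -0.59, with unadjusted limma P values of 0.0378 and 0.0157. For IgM the two-sided exact permutation test gave 0.0758, and it did not pass in 9 of 27 alternative settings, where the difference reached -0.34 without controls 1 and 2. The delta-like probe did not pass in 3 of 27. These are the classes that B cells carry before they switch. A gamma heavy chain probe was detected through the controls alone, with its spot found on 4 of 5 nitrate arrays. It had -1.53 (unadjusted limma P value 0.0487), which rested on nitrate treated mouse 1 at 2.28, a reading not well above background. Without that mouse it was -0.88 (unadjusted limma P value 0.124), and it did not pass in 12 of 27 alternative settings. Neither of 2 probes described as gamma-2a or IgG2a passed, at -0.27 and 0.65. With each array left out in turn the first lay between -0.92 and 0.32 and the second between 0.03 and 1.14.

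**Figure D2:**
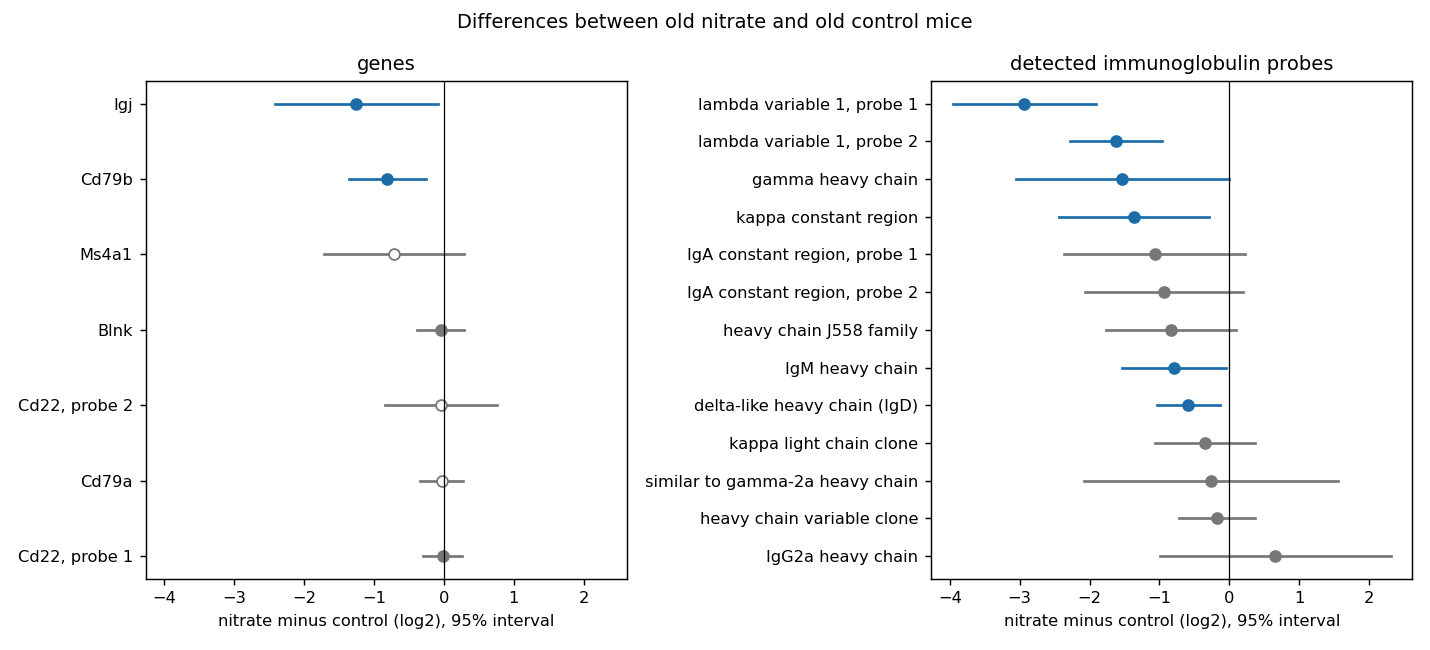
Difference between nitrate treated and control mice on the log2 scale (horizontal axis) with its 95% interval, for 7 probes of 6 genes on the left, Pax5 left out, and for the 13 detected immunoglobulin probes on the right. Blue marks probes that passed and open points probes that were not detected. Intervals of Igj and Cd79b lie below 0, that of the detected Cd22 probe (probe 1) runs from -0.29 to 0.26 and that of Blnk from -0.39 to 0.29. Of the immunoglobulin probes 6 passed, and 10 were detected through the controls alone.

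Signals of Cd79b, Ms4a1 and Igj varied together between mice after the mean of each group was subtracted. Ms4a1 was not well above background in 5 of the 11 mice, so its relations rest in part on readings near background. For Cd79b and Ms4a1, Pearson's r was 0.93 and Spearman's rho 0.85 over 11 mice (exact permutation tests within groups, p = 0.000104 and p = 0.00500), and r was 0.91 without the 2 mice farthest from the median. Adjusted over the 10 pairs tested among 5 genes, the permutation P value of r was 0.00104. Cd79b and Igj had r of 0.73 and rho of 0.75 (exact permutation p = 0.0155 and p = 0.0126, adjusted 0.0495 for r), and r was 0.69 without the 2 farthest mice. Ms4a1 and Igj had r of 0.70 and rho of 0.76 (exact permutation p = 0.0165 and p = 0.0109, adjusted 0.0495 for r), and r was 0.65 without the 2 farthest mice.

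Blnk followed Ms4a1, with r of 0.62 and rho of 0.75 (exact permutation p = 0.0198 and p = 0.00559, adjusted 0.0495 for r), and r was 0.84 without the 2 farthest mice. Cd22 followed none of the others, with r between -0.11 and 0.30 and an adjusted exact permutation P value of at least 0.560. Igj and the kappa constant region had the closest relation, with r of 0.96 and rho of 0.94 (exact permutation p = 2.31e-05 and p = 0.000174), and r was 0.95 without the 2 farthest mice. Adjusted over the 12 relations of these 3 genes with other signals, the permutation P value of this r was 0.000277. No slide held more than 4 mice, too few for a correlation within a slide, and these relations were not adjusted for slide.

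**Figure D3:**
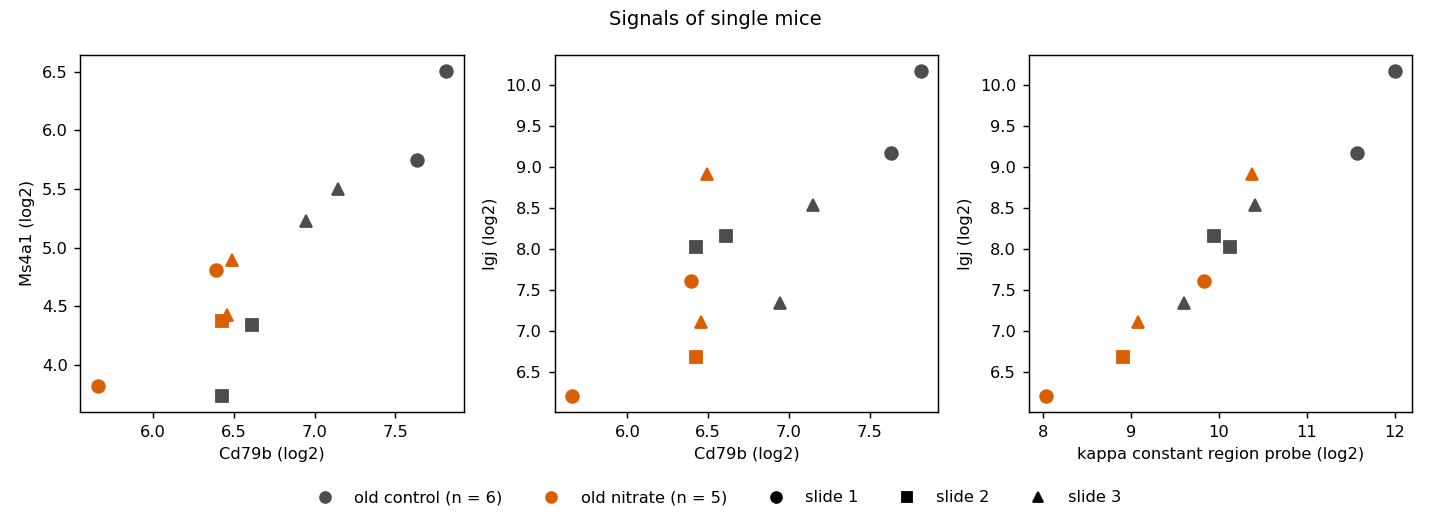
Normalized log2 signals of single mice, with Ms4a1 and Igj on the vertical axes against Cd79b, and Igj against the kappa constant region probe (horizontal axes). Colors give the group and symbols the slide. Controls 1 and 2, on slide 1, are the highest in each panel, and nitrate treated mouse 1, also on slide 1, is the lowest for Cd79b, Igj and the kappa probe.

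Across the 15468 detected probes with a RefSeq gene symbol, 5 followed the mean of the 4 detected genes most closely over the 11 mice, after group means were subtracted. These were Slfn10-ps (r of 0.93), a pseudogene, H2-Ab1 (0.92), a chain of the MHC class II molecule that presents antigen, Psmb10 (0.89), a subunit of the immunoproteasome, Cd74 (0.88), the invariant chain, and Serpina3g (0.88), a protease inhibitor. The signals were not scaled before averaging, so Igj, with the widest spread of the 4 genes, weighed most in that mean. The 5 probes were picked as the highest of all, and no test was made. None of these 5 passed between the groups, and H2-Ab1 had a difference of -0.25.

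The differences were unequal between slides. On slide 1, Cd79b was 7.63 and 7.82 in controls 1 and 2 against 5.66 and 6.39 in nitrate treated mice 1 and 2, a difference of -1.70, but it was -0.09 on slide 2 and -0.57 on slide 3. For Igj the differences were -2.76, -1.40 and 0.08 on slides 1, 2 and 3. For Ms4a1 they were -1.81 and -0.70 on slides 1 and 3, where nitrate treated mice 1 and 5 were not well above background. On slide 2 Ms4a1 was well above background in none of the 3 mice. The kappa constant region had -2.86, -1.13 and -0.28. Controls 1 and 2 had the highest signals of all 11 mice in each of these 4 probes.

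Lambda probe 2 had differences of -1.63, -1.88 and -1.30 on slides 1, 2 and 3. The 2 IgA probes, which did not pass, had 0.06 and 0.10 on slide 1 and between -1.85 and -1.34 on slides 2 and 3. With slide as a block, Cd79b and Igj still passed, at -0.88 and -1.36 (unadjusted limma P values 0.00526 and 0.0342). Without controls 1 and 2, Cd79b had -0.50 and passed (unadjusted limma P value 0.0342), while Igj had -0.71 and did not (0.181). Without the 4 mice of slide 1 neither passed, at -0.32 and -0.44 (unadjusted limma P values 0.0933 and 0.425).

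**Figure D4:**
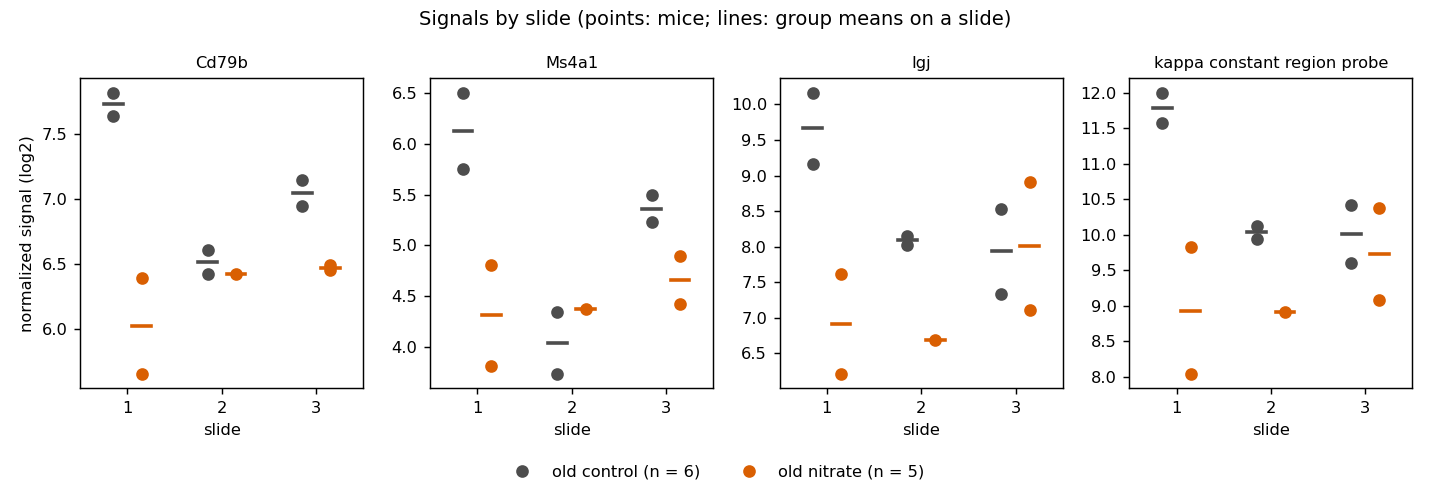
Normalized log2 signals (vertical axes, a separate scale for each panel) by slide for Cd79b, Ms4a1, Igj and the kappa constant region probe, points for mice and lines for group means on a slide. The gap between controls and nitrate treated mice is widest on slide 1, for Cd79b -1.70 there against -0.09 on slide 2.

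Of 35 other genes of B cell identity and antigen receptor signaling, 19 were detected, 1 was higher and 1 lower, and the median difference was 0.01. Bank1, a scaffold protein of receptor signaling, was lower by a difference of -0.28 (unadjusted limma P value 0.0426), but did not pass in 16 of 27 alternative settings. Cd72, a surface receptor that also occurs on myeloid cells, was higher, at 0.43 (unadjusted limma P value 0.0393), but did not pass in 9 of 27. Among the brightest were Cd81 with a difference of 0.08, Ebf1 with -0.07, Plcg2 with 0.12 and Vav1 with 0.08, genes that many cells other than B cells express.

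The other 16 genes of this list were not detected, and 6 of them were well above background on no array. Of the 16, 13 had differences below 0, a count that includes readings of background and is no support. In the fit over all probes 3 had an unadjusted limma P value under 0.05, each with a difference below 0. Faim3, a receptor for IgM now named Fcmr, was well above background on 3 of 5 nitrate arrays and 6 of 6 control arrays, with a difference of -1.02. Spib, a transcription factor of B cells, was above it on 0 and 3 arrays. Cxcr5, the receptor that guides B cells to follicles, was above it on 0 and 2 arrays, and no fold is given for either.

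Of 16 plasma cell and secretion genes, 10 were detected, 1 was lower and 0 higher, with a median of -0.08. Derl3, which removes misfolded protein from the endoplasmic reticulum, was detected through the controls alone, with 4 of 5 nitrate arrays above background. It had 4.93 ± 0.38 (SD, n = 5) against 5.54 ± 0.21 (SD, n = 6), a difference of -0.61 (two-sided exact permutation test, p = 0.00649). It did not pass without slide 1, at -0.45, or with normexp background correction, where -0.21 was under the fold change limit. Xbp1, the factor that expands the secretory apparatus, had -0.10, Creld2 0.01, Eaf2 -0.12 and Txndc5 0.11, and none of the 4 passed. Mzb1, a chaperone of antibody assembly listed in the files under an older name, was not detected, with 1 of 5 nitrate and 5 of 6 control arrays well above background.

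Of 13 measured ligands for B cell survival and homing, 6 were detected, 1 lower and 1 higher. Ltb, a lymphotoxin chain made by lymphocytes, was lower by a difference of -0.66 (unadjusted limma P value 0.0150), but was detected through the controls alone, with its spot found on 4 of 5 nitrate arrays. It did not pass without controls 1 and 2, at -0.50, or without slide 1, at -0.20. Ccl19, a chemokine of lymphoid stroma, was higher, with 8.89 ± 0.26 (SD, n = 5) against 8.44 ± 0.13 (SD, n = 6). Cxcl13, which draws B cells into follicles, had -0.42 and did not pass, and was also detected through the controls alone. Ccl21a had -0.34 and Cxcl12 -0.01. Tnfsf13b, the survival factor BAFF, had 0.23, under the fold change limit. Of the 6 germinal center genes 3 were detected and none passed. Bcl6 had a difference of -0.23 and S1pr2 of 0.23.

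**Figure D5:**
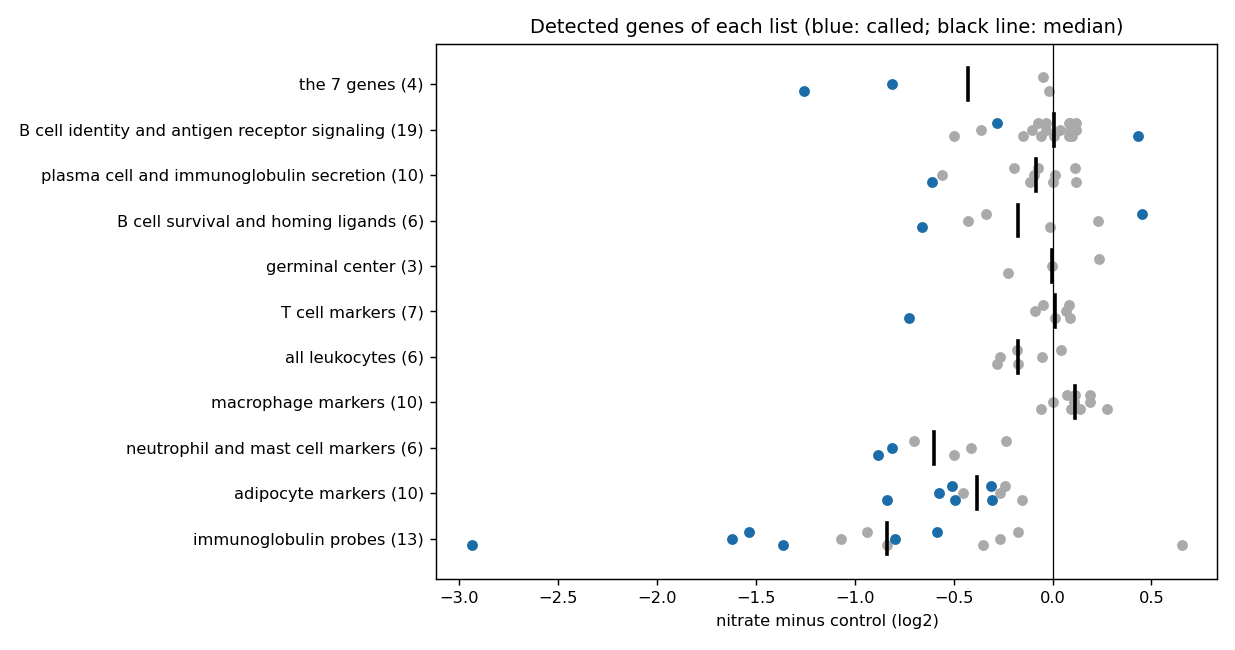
Difference between nitrate treated and control mice on the log2 scale (horizontal axis) for the detected genes of each list, 1 point per gene or probe, blue where it passed, with the median as a black line and the number detected in brackets. The B cell identity list centers on 0.01 and the adipocyte markers on -0.38. Of the 13 immunoglobulin probes 10 were detected through the controls alone, so their place is partly set by the detection rule.

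Markers of other cells were measured beside these genes. Of 10 detected adipocyte markers, 6 were lower and none higher, and all 10 had differences below 0, as did 46.2% of all detected probes. Their median difference was -0.38. Their summed linear signal lay between 259978 and 340587 in nitrate treated mice and between 336045 and 468524 in controls. After group means were subtracted, Cd79b had r of 0.63 and rho of 0.61 with the mean of the adipocyte markers (exact permutation p = 0.0752 and p = 0.0742, adjusted 0.226 over 12 relations for r), and r was 0.63 without the 2 farthest mice. Ms4a1 had r of 0.55 and rho of 0.56 with it (exact permutation p = 0.144 and p = 0.118). For Igj, r was 0.49 and rho 0.58 (exact permutation p = 0.149 and p = 0.0761). The part of adipocyte RNA in the lower Cd79b and Igj was not tested.

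Of 7 detected T cell markers, only Cd2, an adhesion receptor that B cells share in mice, was lower, at -0.73 with no overlap between the groups. Cd3e had a difference of 0.01. None of 6 markers of all leukocytes passed, of which 5 had differences below 0, with a median of -0.18. None of 10 macrophage markers passed, of which 1 had a difference below 0, with a median of 0.11. Of 6 detected neutrophil and mast cell markers, S100a9 and Kit were lower, at -0.88 and -0.81, and the other 4 did not pass. All 6 had differences below 0, with a median of -0.60, but S100a8 and Cma1 were detected through the controls alone, so this count is partly set by the detection rule. The part of these cells in the lower Cd79b and Igj was not tested. None of 5 detected red blood cell markers passed, of which 4 had differences below 0, with a median of -0.45. Their mean had r between -0.12 and 0.02 with Cd79b, Ms4a1 and Igj (rho between -0.17 and -0.02, exact permutation p of at least 0.634 for each). Glycam1, a marker of lymph node vessels, was well above background on 0 of 5 nitrate and 1 of 6 control arrays. None of the 6 smooth muscle markers, which mark the vessel wall, passed. All 6 were detected and all 6 had differences above 0, with a median of 0.11.

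Heart muscle markers set 2 mice apart. Their mean log2 signal over 10 genes was 11.91 in nitrate treated mouse 4 and 11.38 in control 1, and between 6.74 and 9.26 in the other 9 mice. Of the 10, only Ryr2 passed, at 0.48, and the median difference was 0.78. Without nitrate treated mouse 4 the difference was -0.86 for Cd79b and -1.66 for Igj, and both passed. Without control 1 it was -0.70 for Cd79b, which passed, and -1.14 for Igj, which did not. The part of heart muscle RNA in these differences was not tested.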

How the data were processed

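RNA of single aortas was measured on one-color arrays of 5 nitrate treated and 6 control mice. For each array the authors deposited spot intensities and quality flags from Feature Extraction 10.7.1.1, background-subtracted but not normalized between arrays, and for all arrays a table of quantile normalized log2 values, which served as an alternative. Here control spots and outlier spots were dropped, processed intensities below 1 were set to 1, log2 values of a probe's spots were averaged, and quantile normalization was run over the 11 arrays. Groups were compared with lmFit and eBayes of limma 3.58.1 in R 4.3.3 over all detected probes, with the limits of the study's methods (P below 0.05 before adjustment, fold change over 1.2) and Benjamini-Hochberg adjusted values beside. Undetected probes take their values from a fit over all 55681 probes. Exact permutation tests used every one of the 462 ways to divide the 11 mice, which give 0.00216 at the lowest, and those of correlations over the 86400 pairings within groups. The script was tested on simulated data.

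A gene with several probes is represented by its brightest detected probe. Positions are in mm9, as the files give them. No annotation of that build was used here, so exon and UTR are not given. Sequences are the first 30 bases of each probe as deposited. Symbols follow the files, with current names from RefSeq of GRCm38.p6. Tnfsf13 and Ly6g were not matched. Genes beyond the 7 were named by rule: genes that passed and up to 4 of the brightest others, 6 immunoglobulin probes that passed, and the 5 probes most like the detected genes. Besides these, the IgA and gamma-2a probes, the undetected lambda probe, Cd3e and Glycam1 were added to the text once their values were known. The members and lists were chosen with earlier results of these data known. Alternatives were other scalings between arrays, normexp background correction, 16 added to the signal, the authors' log2 values, other limits for detection, outlier spots retained, a trended prior variance, slide and replicate number as blocks, the choice of probe, the fold change limit and each array left out. Leaving out controls 1 and 2 or slide 1 was chosen after seeing the data. Nothing shows that replicate numbers pair mice.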

Additional observations from a re-analysis of the deposited data

Results flagged for a closer look

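Among 54 groups of mice, for the 9 probes of the 7 genes, 5 genes of the lists and 13 immunoglobulin probes, a single mouse lay far from the rest of its group in 5, where chance gives about 2.7. The ratio given is its gap to the nearest mouse over the range of the group. Nitrate treated mouse 1 was low in Cd79b (0.881), at 5.66 where the others lay between 6.39 and 6.49, and high in the dimmer Pax5 probe (0.858), which was not well above background. Nitrate treated mouse 2 was high in Bank1 (0.783) and in lambda variable 1 probe 1 (0.841), where it too was not well above background. Control 5 was low in Bank1 (0.670). Without nitrate treated mouse 1, Cd79b had a difference of -0.66.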

How the results depend on the processing

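In all 27 alternatives Cd79b and Igj had differences below 0. Cd79b passed in 26, with differences between -0.95 and -0.48, and did not pass without slide 1, at -0.32. Igj did not pass in 9 of them. The number of the 7 genes that passed, 2, became 1 without a detection filter, where Igj had an unadjusted limma P value of 0.0516, 1 without controls 1 and 2 and 0 without slide 1, and lay between 1 and 2 with each array left out in turn. The number of detected probes that passed, 2128, became 1211 with normexp background correction, 3224 without a detection filter, 3394 without the limit on the fold change and 1195 without slide 1, and lay between 1596 and 2424 with each array left out. Fits without slide 1 have fewer mice. The signals did not show that replicate numbers pair the mice. Same-numbered mice had correlations between -0.14 and 0.18, and only nitrate treated mouse 2 correlated best with its own number. With the replicate block, over 10 arrays, 2 of the genes and 2433 probes passed.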
